A study of Arabidopsis thaliana with 9 samples.

Results

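TREX-2 is the complex that couples transcription to the export of mRNA at the nuclear pore. Transcripts of its subunit genes were followed in *Arabidopsis thaliana* seedlings of the wild type Col and of the lines labelled *thp1-5* and *sac3bc*. The 9 genes examined were chosen by locus, as subunits of the complex, from the 37361 loci counted: *THP1*, *SAC3A*, *SAC3B*, *SAC3C*, *DSS1I*, *DSS1V*, *CEN1*, *CEN2* and *NUP1*. Each genotype was represented by 3 libraries. Seedlings were 14 days old in all groups, received no treatment and were raised at 22 °C on half-strength MS medium containing 1% sucrose, with 16 h of light and 8 h of dark. Polyadenylated RNA was sequenced as single-end reads of 150 nt. The labels name the genotypes only: they do not give the lesion in either line or state that the replicates came from separate cultures. The p-values therefore measure the spread between these libraries, which may be technical.

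In yeast, where TREX-2 was first described, Sac3 is the scaffold. Thp1 and the small acidic protein Sem1 (DSS1 in plants and animals) bind its middle part, the centrin Cdc31 and the small protein Sus1 (ENY2) bind its C-terminal part, and the whole complex docks at the basket on the nuclear side of the pore. Arabidopsis has 3 *SAC3* paralogs and a pair each of *DSS1* and centrin genes, and *NUP1*, also known as *NUP136*, encodes a basket nucleoporin of plants. DSS1 is also a subunit of the proteasome lid, and centrin acts in DNA repair and at microtubule arrays.

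Total counts per library ran from 12814326 to 17923310, and the *sac3bc* libraries, each at 16054494 or more, were deeper than most of the others. Levels are CPM (the count divided by the library's total, on the usual scale) with totals scaled by TMM, the trimmed mean of M-values. The TMM factors were 0.863 to 0.87 in Col and 1.05 to 1.1 in the mutants. Scaling by total counts instead moved the median log2 fold change of the genes tested from 0.02 to 0.30 in *thp1-5* and from 0.03 to 0.37 in *sac3bc*. As markers of a whole seedling, all 4 green leaf, 4 root and 3 dividing cell genes were detected in every group. Of 3 shoot meristem genes, *STM* alone was tested and fell to 43.9% of Col in *thp1-5* and 39.9% in *sac3bc* (edgeR adjusted p = 1.77e-10 and 5.93e-13), and *CLV3* and *WUS* were at 0 in every mutant library and in all but 1 Col library each. These markers moved with the genotype. Summed green leaf markers ran from 43100 to 44300 CPM in Col, 26300 to 27500 in *thp1-5* and 22700 to 23600 in *sac3bc*. Summed root markers ran from 39.3 to 42.2, 72.3 to 79.6 and 115 to 116 CPM, and dividing cell markers from 47.6 to 51, 90.9 to 97.4 and 71.3 to 73.6 CPM, in the same order. The part of tissue makeup in the results below was not tested. In whole seedlings, fewer cells of a type and less RNA per cell cannot be told apart.

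In Col the subunit transcripts differed in abundance. Per length (CPM per kilobase, RPKM), *DSS1I* was highest at 38.3 ± 1.75, followed by *CEN1* at 29.1 ± 0.397, *DSS1V* at 27.4 ± 1.17 and *SAC3A* at 17.2 ± 1.16 (SD, n = 3). *CEN2* at 13.5 ± 2.98 and *NUP1* at 11.9 ± 0.711 had overlapping libraries. *SAC3C* at 8.66 ± 0.467, *SAC3B* at 8.45 ± 0.0485 and *THP1* at 7.97 ± 0.832 also overlapped and were the lowest. Both *DSS1* genes and *CEN1* thus stood above the scaffold genes, while *CEN2* lay below *SAC3A* without overlap. *THP1* lay at percentile 45.6 and *DSS1I* at percentile 86 of the 22400 genes tested. In *sac3bc* the lower end of this order changed: *SAC3A* fell to 3.42 ± 0.254 RPKM, overlapping *THP1* at 3.91 ± 0.649 and below *SAC3C* at 4.4 ± 0.122 and *SAC3B* at 4.62 ± 0.429, whose libraries overlapped each other.

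**Figure D1:**
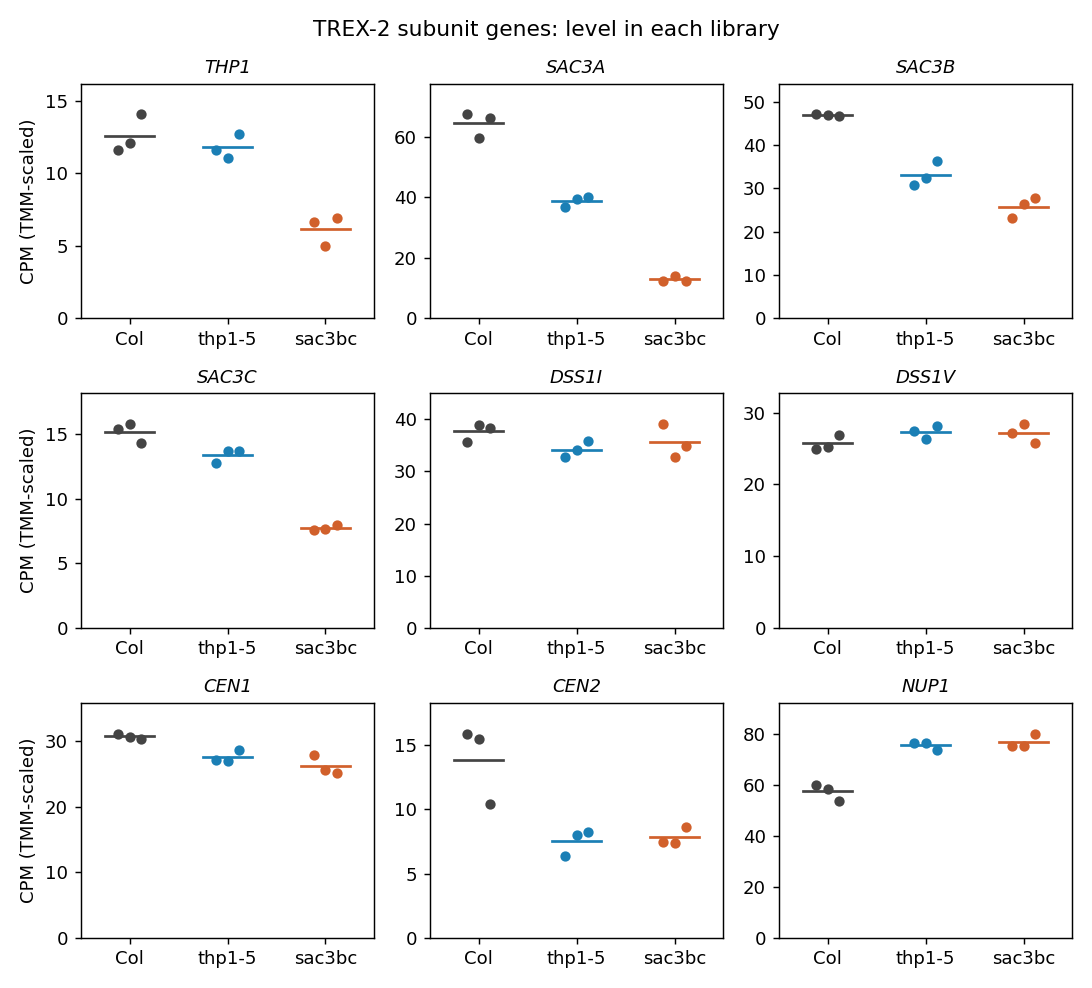
Level of each of the 9 TREX-2 subunit genes in each library, in TMM-scaled CPM (y axes start at 0), by genotype; points are libraries and lines are group means (n = 3). *SAC3A* lies between 59.4 and 67.4 CPM in Col and between 12.1 and 13.9 in *sac3bc*, while *NUP1* is higher in all 6 mutant libraries than in all 3 Col libraries.

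The transcript of *THP1* was examined first, since the label *thp1-5* names it. *THP1* (AT2G19560, RefSeq symbol *EER5*; TAIR10.1 chromosome 2, 8465690 to 8469145, minus strand) encodes a protein with a PCI domain that pairs with SAC3. Its level was 11.6, 12.1 and 14.1 CPM in the Col libraries, 11.6, 11.1 and 12.7 in *thp1-5* and 6.64, 5 and 6.89 in *sac3bc*. The *thp1-5* libraries overlapped those of Col, and every *sac3bc* library was below every other library. The log2 fold change was −0.10 ± 0.11 in *thp1-5* (SE; 95% interval −0.318 to 0.111; adjusted p = 0.413, edgeR), so the count over the whole gene does not separate the libraries labelled *thp1-5* from Col. In *sac3bc* *THP1* fell to 48.8% of Col (log2 fold change −1.03 ± 0.12, adjusted p = 2.92e-14, edgeR).

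The scaffold genes *SAC3B* and *SAC3C*, which the label *sac3bc* names, kept part of their transcript in the *sac3bc* libraries. *SAC3B* (AT3G06290; TAIR10.1 chromosome 3, 1898877 to 1907448, minus strand) stood at 47.2, 47 and 46.7 CPM in Col, 30.8, 32.4 and 36.4 in *thp1-5* and 23.1, 26.4 and 27.7 in *sac3bc*. The 3 groups did not overlap. It fell to 70.7% of Col in *thp1-5* (log2 fold change −0.50 ± 0.06, adjusted p = 1.08e-12, edgeR) and to 54.9% in *sac3bc* (−0.87 ± 0.06, adjusted p = 3.31e-27, edgeR). *SAC3C* (AT3G54380; TAIR10.1 chromosome 3, 20133893 to 20137007, minus strand), the shortest of the paralogs, stood at 15.4, 15.8 and 14.3 CPM in Col, 12.8, 13.7 and 13.7 in *thp1-5* and 7.56, 7.63 and 7.96 in *sac3bc*. It fell to 50.9% of Col in *sac3bc* (−0.97 ± 0.10, adjusted p = 1.28e-15, edgeR). In *thp1-5* the libraries lay just below those of Col without overlap, but the value of −0.17 ± 0.10 did not pass the test (95% interval −0.368 to 0.019, adjusted p = 0.11, edgeR). The labels do not give the position of the lesions, so reads on either side of a lesion cannot be separated, and the counts check the label in part only.

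*SAC3A*, which neither label names, had the largest change of the 9 genes in *sac3bc*. In *thp1-5* the log2 fold change of *CEN2* was larger in size than that of *SAC3A* (−0.86 and −0.73), but no test compared them. With a correction for length and GC the order was the opposite (−0.59 for *CEN2* and −0.81 for *SAC3A*). SAC3A (AT2G39340; TAIR10.1 chromosome 2, 16423541 to 16430108, plus strand) is a paralog of the scaffold genes named in the label *sac3bc*. It stood at 67.4, 59.4 and 66.3 CPM in Col, 36.7, 39.2 and 40.1 in *thp1-5* and 12.1, 13.9 and 12.4 in *sac3bc*. The 3 groups were well apart, with the highest *sac3bc* library at 13.9 CPM and the lowest *thp1-5* library at 36.7. It fell to 60.3% of Col in *thp1-5* (−0.73 ± 0.06, adjusted p = 7.1e-25, edgeR) and to 20% in *sac3bc* (−2.32 ± 0.06, adjusted p = 4.38e-69, edgeR). Both neighbouring loci with counts rose in *sac3bc*: *JAL23*, which lies 1382 bases upstream, by 0.49 (adjusted p = 1.21e-05, edgeR) and *ABCG1*, whose opposite-strand exons share 24 bases with *SAC3A*, by 0.80 (adjusted p = 4.76e-13, edgeR). In *thp1-5* *JAL23* fell by 0.48 and *ABCG1* rose by 0.74 (edgeR adjusted p = 0.000253 and 5.33e-11).

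Summed over the paralogs, *SAC3* transcript fell in steps across the genotypes. The sum was 35.3, 33.4 and 34.3 RPKM in the Col libraries, 22.6, 24.1 and 25.1 in *thp1-5* and 11.7, 12.8 and 12.8 in *sac3bc*. No library of a group reached into another group with this TMM scaling. The sum was not taken with total counts, with which *SAC3C* in *thp1-5* went from −0.17 to 0.11 (edgeR adjusted p = 0.11 and 0.296). The sum includes *SAC3B* and *SAC3C*, which the label *sac3bc* names, so the *sac3bc* values are in part those of the named genes. The makeup changed too: *SAC3A* gave 50.1 ± 2.22% of the sum in Col, 43.1 ± 0.364% in *thp1-5* and 27.5 ± 1.6% in *sac3bc*, while *SAC3B* gave 24.6 ± 0.667%, 24.9 ± 1.03% and 37.1 ± 1.68% (n = 3 each, errors are SD). *SAC3C* gave 25.3 ± 1.68%, 32 ± 0.666% and 35.4 ± 1.42%.

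**Figure D2:**
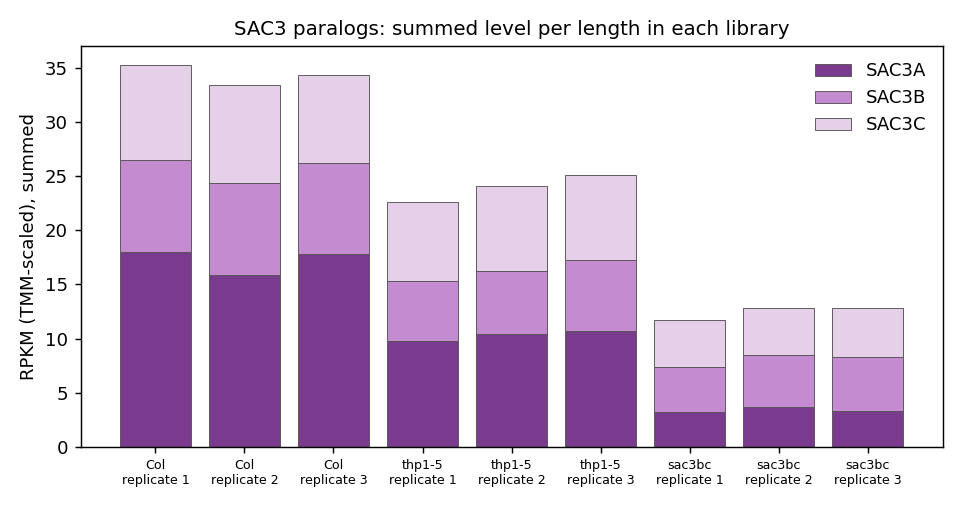
Summed RPKM (TMM-scaled CPM per kilobase, y axis from 0) of the 3 *SAC3* paralogs in each of the 9 libraries, each bar divided by paralog. The Col bars reach 33.4 to 35.3, the *thp1-5* bars 22.6 to 25.1 and the *sac3bc* bars 11.7 to 12.8, with the *SAC3A* part shrinking most. *SAC3B* and *SAC3C* are the genes that the label *sac3bc* names.

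The ratio between 2 subunits within a library does not depend on how libraries are scaled. Counts of *SAC3A* per base were 2.12, 1.88 and 2.11 times those of *SAC3B* in Col, 1.77, 1.8 and 1.64 times in *thp1-5* and 0.782, 0.784 and 0.665 times in *sac3bc*. The order of the paralogs was thus the opposite in the *sac3bc* libraries. The log2 ratio differed by −1.46 between *sac3bc* and Col and by −0.23 between *thp1-5* and Col, without overlap in either case. With 3 libraries against 3, the exact two-sided permutation test cannot go below p = 0.1, which both reached (adjusted p = 0.167 over 15 ratio comparisons). The log2 ratio of *SAC3C* to *SAC3B* was 0.33 higher in *thp1-5* than in Col and that of *THP1* to *SAC3B* 0.41 higher, each without overlap (exact permutation p = 0.1, adjusted p = 0.167). In *sac3bc* the same ratios differed from Col by −0.10 and −0.17 with overlapping libraries (exact permutation p = 0.3 and 0.5, adjusted p = 0.375 and 0.5). The log2 ratio of *DSS1I* to *DSS1V* differed by −0.22 between *thp1-5* and Col and that of *CEN1* to *CEN2* by 0.71, neither with overlap (exact permutation p = 0.1, adjusted p = 0.167). In *sac3bc* they differed from Col by −0.16 and 0.57, and the libraries overlapped in both ratios (exact permutation p = 0.3 and 0.2, adjusted p = 0.375 and 0.3).

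**Figure D3:**
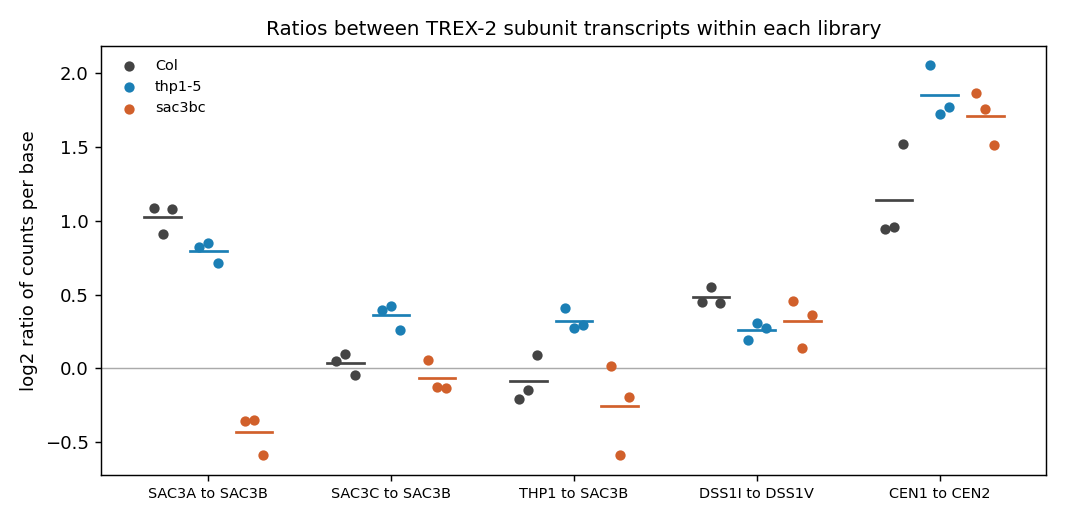
Log2 ratio of counts per base between 2 TREX-2 subunit transcripts in each library (points; lines are group means, n = 3), by genotype. *SAC3A* to *SAC3B* is above 0 in all Col and *thp1-5* libraries and below 0, from −0.588 to −0.352, in the *sac3bc* libraries, while *DSS1I* to *DSS1V* stays between 0.138 and 0.554.

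The DNA before the annotated starts of *THP1*, *SAC3A* and *SAC3B* is shown. These are some of the members that fell in *sac3bc*, not all of them, so no pattern over the fallen genes can be read from them. It was read from the RefSeq TAIR10.1 genome, 250 bases before the start or as far as the next locus, and searched on both strands for site II (TGGGCC or TGGGCT), telobox (AAACCCTA) and E2F (TTTCCCGC) letters, elements found before many genes of dividing cells. Each sequence is written 5′ to 3′ on the strand of its gene, with matches in capitals.
*THP1*, chr2:8469146-8469395, minus strand: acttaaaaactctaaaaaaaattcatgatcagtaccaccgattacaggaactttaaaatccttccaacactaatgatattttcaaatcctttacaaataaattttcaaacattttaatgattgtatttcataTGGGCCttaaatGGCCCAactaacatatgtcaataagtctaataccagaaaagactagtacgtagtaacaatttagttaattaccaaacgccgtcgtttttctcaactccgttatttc
*SAC3A*, chr2:16423291-16423540, plus strand: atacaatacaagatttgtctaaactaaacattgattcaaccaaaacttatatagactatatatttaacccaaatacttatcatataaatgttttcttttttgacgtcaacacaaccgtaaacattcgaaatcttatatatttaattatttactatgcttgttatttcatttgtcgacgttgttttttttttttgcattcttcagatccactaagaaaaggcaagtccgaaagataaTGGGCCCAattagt
*SAC3B*, chr3:1907449-1907581, minus strand: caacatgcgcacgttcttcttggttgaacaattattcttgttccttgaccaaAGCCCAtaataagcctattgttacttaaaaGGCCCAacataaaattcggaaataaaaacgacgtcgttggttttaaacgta

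In the windows shown, site II letters stood 118 and 106 bases before the start of *THP1*, on opposite strands, and 81 and 51 bases before that of *SAC3B*. In *SAC3A* the matches at 14 and 12 bases, on opposite strands, overlap in 1 palindrome. Of 19766 protein-coding genes with a window of 250 bases, 17.2% held site II, 3.8% a telobox and 0.471% E2F letters, and over 133 bases, the gap between *SAC3B* and the divergent gene *P4H2*, 14.2% of 22078 held site II. No telobox or E2F letters were found before these 3 genes, nor any of the motifs in the shorter windows before *DSS1I* and *CEN1*. *DSS1V*, *CEN2* and *NUP1* have under 100 bases free of another locus. *P4H2*, which starts on the other side of the *SAC3B* window, was at 23.5 ± 0.17 CPM in Col and 25.2 ± 0.597 in *sac3bc* (SD, n = 3), without overlap but without a call (adjusted p = 0.183, edgeR).

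The *DSS1* genes differed little between the genotypes with TMM scaling. *DSS1I* (AT1G64750; TAIR10.1 chromosome 1, 24052362 to 24053923, minus strand) ranged over all 9 libraries from 32.8 to 39.1 CPM and *DSS1V* (AT5G45010; chromosome 5, 18166898 to 18168383, minus strand) from 24.9 to 28.4. *DSS1I* was called lower in *thp1-5* (−0.14 ± 0.06, adjusted p = 0.0411, edgeR), with overlapping libraries, and that call turned to 0.15 higher with total counts (adjusted p = 0.0295, edgeR) and was lost by DESeq2 (adjusted p = 0.128). In *sac3bc* it stood at −0.09 ± 0.06 (95% interval −0.207 to 0.03, adjusted p = 0.183, edgeR), but total counts gave a call at 0.25 (edgeR adjusted p = 0.000117), and it was called lower without *sac3bc* replicate 1 (−0.16, adjusted p = 0.0265). *DSS1V* was called in neither mutant, at 0.08 ± 0.07 in both (95% intervals −0.059 to 0.222 and −0.061 to 0.211), although it was called higher in both with total counts, at 0.37 and 0.41, and with a correction for length and GC, at 0.20 and 0.16 (edgeR adjusted p = 0.0108 and 0.0268). Exons of *DSS1V* share 93.2% of their bases with loci on the opposite strand, and those of *DSS1I* share 12.8%. All 126 of these bases of *DSS1I* lie in exons of the opposite-strand tubulin gene *TUA1*, and 96 also lie in the same-strand locus AT1G08727, which fell by 0.79 in *thp1-5* and 0.86 in *sac3bc* (edgeR adjusted p = 2.38e-09 and 3.27e-11). The strand setting of the counting is unknown, so reads of these partners cannot be told apart and the *DSS1V* values are uncertain.

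Of the centrin genes, *CEN2* fell in both mutants. *CEN2* (AT4G37010; TAIR10.1 chromosome 4, 17444129 to 17445615, plus strand) stood at 15.9, 15.5 and 10.4 CPM in Col, 6.4, 8.02 and 8.23 in *thp1-5* and 7.5, 7.42 and 8.62 in *sac3bc*. The Col libraries were spread widely, with replicate 3 low, yet none overlapped the mutants. It fell to 54.9% of Col in *thp1-5* (−0.86 ± 0.12, adjusted p = 2.59e-10, edgeR) and to 56.9% in *sac3bc* (−0.81 ± 0.11, adjusted p = 3.35e-10, edgeR). The fall of *CEN2* was smaller but still called with total counts (−0.58 and −0.48) and with the length and GC correction (−0.59 and −0.58). Its exons share 16.2% of their bases with those of the same-strand neighbour *ACD2*, which encodes an enzyme of chlorophyll breakdown and fell by 0.51 and 0.64 on the log2 scale in the 2 mutants (edgeR adjusted p = 1.86e-23 and 1.46e-31); the part of these shared reads was not tested. *CEN1* (AT3G50360, for which RefSeq gives the symbol *CEN2* and the synonym *CEN1*; TAIR10.1 chromosome 3, 18674137 to 18675761, plus strand) ranged from 30.3 to 31.1 CPM in Col, 27 to 28.7 in *thp1-5* and 25.1 to 27.9 in *sac3bc*. It changed by −0.15 ± 0.07 (adjusted p = 0.0407, edgeR) and −0.23 ± 0.07 (adjusted p = 0.0014, edgeR), but stood at 0.13 and 0.11 with total counts, without a call (adjusted p = 0.0703 and 0.136). The *thp1-5* call was lost by DESeq2 (adjusted p = 0.109), and both calls were lost with the length and GC correction (−0.02 and −0.12, edgeR adjusted p = 0.83 and 0.0997). Of the summed centrin RPKM, *CEN1* gave 68.6 ± 4.77% in Col, 78.2 ± 2.06% in *thp1-5* and 76.6 ± 2.28% in *sac3bc* (errors are SD, n = 3).

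*NUP1* was the only one of the 9 genes called higher than in Col with TMM scaling. *NUP1* (AT3G10650; TAIR10.1 chromosome 3, 3325074 to 3331282, minus strand) stood at 60.1, 58.5 and 53.5 CPM in Col, 76.5, 76.4 and 73.8 in *thp1-5* and 75.2, 75.3 and 80 in *sac3bc*. All 6 mutant libraries were above all 3 Col libraries. It rose to 132% of Col in *thp1-5* (0.40 ± 0.05, adjusted p = 8.95e-14, edgeR) and to 134% in *sac3bc* (0.43 ± 0.05, adjusted p = 8.79e-16, edgeR). Its exons share 4.78% of their bases with same-strand neighbours, chiefly the kinase gene *CPK2*, whose level was 5.57 ± 0.639 CPM for Col, 13.1 ± 0.991 for *thp1-5* and 14.9 ± 0.438 for *sac3bc* (errors are SD, n = 3) and was called higher in both mutants (edgeR).

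Counted together, 6 of the 9 genes were called in *thp1-5*, 5 lower and 1 higher, where 63.8% of the 22400 genes tested were called (31.8% lower and 32.1% higher). In *sac3bc*, 7 were called, 6 lower and 1 higher, against 68.0% of all genes (33.0% lower and 35.0% higher). The shares called in either direction are near those of all genes. The shares called lower are larger than those of all genes and the shares called higher are smaller, but no test compared them. Libraries did not overlap Col for 6 members in *thp1-5*, 1 higher and 5 lower, against 65.4% of all genes (32.9% higher and 32.6% lower). In *sac3bc* that held for 7 members, 1 higher and 6 lower, against 69.3% (35.8% higher and 33.5% lower). The median of the 9 genes was −0.15 in *thp1-5* and −0.81 in *sac3bc*, beside 0.02 and 0.03 for all genes tested. These counts and the *sac3bc* median include *SAC3B* (−0.87) and *SAC3C* (−0.97), which the label *sac3bc* names. Of the other members in *sac3bc*, *SAC3A* stood at −2.32, *THP1* at −1.03, *CEN2* at −0.81 and *CEN1* at −0.23. *DSS1I* stood at −0.09, *DSS1V* at 0.08 and *NUP1* at 0.43. With total counts, 3 of the 9 were higher and 3 lower in *thp1-5* (median 0.13) and 3 higher and 5 lower in *sac3bc* (median −0.48), while of all genes 12538 were higher and 3614 lower in *thp1-5* and 13625 and 3636 in *sac3bc*. The mutants are compared with the same Col libraries, so these counts are not independent of each other.

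The mutants were then compared with each other, which tests whether their changes differ. *THP1*, *SAC3A*, *SAC3B* and *SAC3C* were higher in *thp1-5* than in *sac3bc*, by 0.93 ± 0.12, 1.59 ± 0.07, 0.36 ± 0.06 and 0.80 ± 0.10 on the log2 scale (SE; edgeR adjusted p = 1.63e-11, 1.17e-45, 1.19e-06 and 7.77e-11). That is 4 of 9 genes higher and 0 lower, where 23.0% of all genes were called, 12.1% higher and 10.9% lower. All of these but *SAC3A* are named in one of the labels, *SAC3B* and *SAC3C* in *sac3bc* and *THP1* in *thp1-5*. These 4 were also the members whose libraries did not overlap between the mutants, against 34.7% of all genes (17.6% higher and 17.1% lower). With total counts the same number of members was called, 4 higher and 0 lower, while the calls over all genes went from 2703 higher and 2447 lower to 1765 and 3703. The other members were not called, with 95% intervals of −0.169 to 0.065 for *DSS1I*, −0.124 to 0.136 for *DSS1V*, −0.054 to 0.205 for *CEN1*, −0.296 to 0.197 for *CEN2* and −0.107 to 0.058 for *NUP1*, and edgeR adjusted p-values of 0.456 or more.

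**Figure D4:**
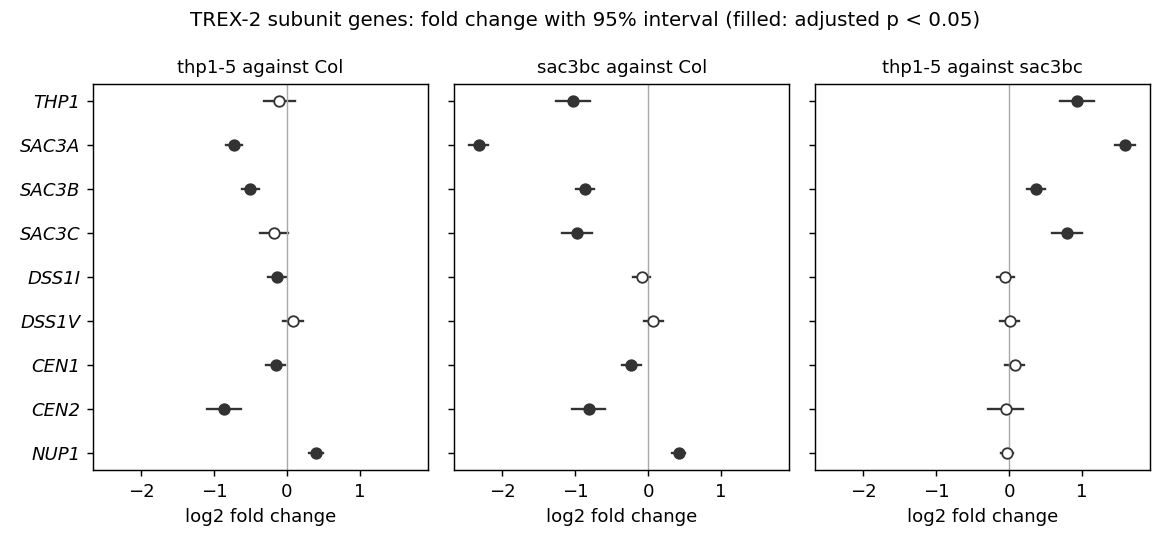
Log2 fold change of the 9 TREX-2 subunit genes (points, edgeR) with 95% intervals (lines) in the 3 comparisons; filled points have an adjusted p under 0.05. *SAC3A* is lowest in *sac3bc* against Col at −2.32, and *THP1* and the *SAC3* genes are the 4 filled points in the comparison of *thp1-5* with *sac3bc*.

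Genes whose level over the 9 libraries was most like that of a scaffold gene or *THP1* were sought among 9031 tested nuclear loci with a symbol, by the root mean square difference of centred log2 CPM. For *THP1* the nearest was *SAC3C* (0.169; r = 0.94), followed by the transcription factor gene *MYB47* (0.183) and *BFT*, a relative of the florigen gene *FT* (0.184). For *SAC3B* they were *NPQ1*, the violaxanthin de-epoxidase of the xanthophyll cycle (0.0636; r = 0.988), *CFM3A*, a splicing factor gene of chloroplasts (0.077), and *TTN8*, which encodes a cohesin subunit (0.0772). For *SAC3A* the nearest were *DOT3* (0.286; r = 0.956), *SEP1* (0.397) and the late embryogenesis gene *M17* (0.4). The difference grows with the size of the changes, which in *sac3bc* was largest for *SAC3A*, so it does not rank the closeness of matches between members. The level of *DOT3* was 14 ± 1.31 CPM for Col, 6.4 ± 1.26 for *thp1-5* and 2.93 ± 0.268 for *sac3bc* (errors are SD, n = 3). Some matches rest on low levels. In the same order *SEP1* had means of 2.04, 0.916 and 0.446 CPM, *M17* of 4.44, 2.78 and 0.82 and *BFT* of 3.99, 3.57 and 2.27. All 9 libraries enter each likeness, among them those whose labels name *THP1*, *SAC3B* and *SAC3C*. In *sac3bc*, whose label names *SAC3C*, both *THP1* and *SAC3C* fell (−1.03 and −0.97). The libraries share 3 genotypes, so these values describe a pattern and carry no test.

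Partner genes were read from 5 lists holding 55 genes, all of them tested. AT3G27100, annotated in RefSeq as a transcription/mRNA export factor and listed here as *ENY2*, the subunit that TREX-2 shares with the deubiquitinating module of the SAGA coactivator, stood at 14.2, 12.8 and 12.8 CPM in Col, 11, 10.8 and 9.71 in *thp1-5* and 11.6, 10.7 and 9.79 in *sac3bc*. Every mutant library was below every Col library. It was called lower in *thp1-5* (−0.33 ± 0.11, adjusted p = 0.00453, edgeR) and in *sac3bc* (−0.31 ± 0.10, adjusted p = 0.00533, edgeR), but with total counts it stood at −0.04 and 0.03 without a call (edgeR adjusted p = 0.732 and 0.812), and with the length and GC correction both calls were lost (−0.21 and −0.22, edgeR adjusted p = 0.0713 and 0.0502). The list that holds *ENY2* is wider than the deubiquitinating module, with the SAGA genes *GCN5* and *ADA2B* in it. Of its 5 genes, 2 rose and 2 fell in each mutant. Over all genes, 32.1% were called higher and 31.8% lower in *thp1-5*, and 35.0% and 33.0% in *sac3bc*. The deubiquitinase gene *UBP22* rose by 0.66 ± 0.08 in *thp1-5* and 0.58 ± 0.07 in *sac3bc*, the acetyltransferase gene *GCN5* rose by 0.49 ± 0.09 and 0.57 ± 0.09, and the adaptor gene *ADA2B* changed by −0.23 ± 0.06 and −0.35 ± 0.06. With total counts *ADA2B* changed sign in *thp1-5* (0.05) and stood at −0.01 in *sac3bc*, without a call in either (edgeR adjusted p = 0.427 and 0.834).

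Genes of THO/TREX, the complex that loads export factors on nascent mRNA, numbered 15, of which 8 rose and 3 fell in each mutant, with medians of 0.37 and 0.25. Over all genes, 32.1% were called higher and 31.8% lower in *thp1-5*, and 35.0% and 33.0% in *sac3bc*. The helicase genes *UAP56A* and *UAP56B*, near-identical neighbours that may share reads, rose by 1.04 ± 0.03 and 1.07 ± 0.03 in *thp1-5* and by 1.11 ± 0.03 and 1.22 ± 0.03 in *sac3bc*, and AT1G66260, for an RNA-binding protein listed as an export adaptor, rose by 0.53 ± 0.04 and 0.63 ± 0.03. Those that fell, named after their values were seen, were *MOS11* (−0.39 and −0.57), a *THO5* gene (AT5G42920; −0.36 and −0.43) and *DWA1* (−0.29 and −0.34). Of 20 nuclear pore genes, 7 rose and 4 fell in *thp1-5* (median 0.09) and 9 rose and 5 fell in *sac3bc* (median 0.11), beside 63.8% and 68.0% of all genes called in either direction. AT1G59660, annotated as a nucleoporin autopeptidase, rose by 1.14 ± 0.13 and 1.13 ± 0.13, and AT2G05120, for a Nup133/Nup155-like nucleoporin, by 0.32 ± 0.09 and 0.49 ± 0.09. AT4G32910, for a Nup85-like protein, fell by 0.45 ± 0.07 and 0.35 ± 0.06, the latter at −0.01 and uncalled with total counts (edgeR adjusted p = 0.858). The other pore genes that fell in both, named after their values were seen, were *SAR1*, *SAR3* and *LNO1*, by 0.13 to 0.29, and *NUA*, for the basket protein nuclear pore anchor, was called at 0.10 in *thp1-5* and −0.11 in *sac3bc*. Of 10 genes of the proteasome lid, in which DSS1 also sits, 8 rose and 1 fell in *thp1-5* (median 0.16) and 8 rose and 0 fell in *sac3bc* (median 0.24); *RPN5B* rose by 0.49 ± 0.08 and 0.51 ± 0.08, *EMB2719*, for a PCI-domain subunit, by 0.20 ± 0.04 and 0.31 ± 0.04 and AT4G24820, for Rpn7, by 0.15 ± 0.04 and 0.28 ± 0.04. The gene that fell was *RPN12a*, at −0.13. Among 5 genes for other partners of DSS1 and centrin, 1 fell and 0 rose in each mutant. That was the DNA repair gene *RAD4*, at −0.29 ± 0.08 and −0.31 ± 0.08, again named after its values were seen. *TON1A* and *TON1B*, which act in microtubule arrays, were not called (log2 fold changes from −0.06 to 0.07, adjusted p of 0.408 or more, edgeR). The medians of these 5 lists in *sac3bc* ran from −0.10 to 0.25, beside −0.81 for the TREX-2 genes, but the 4 green leaf markers had a median of −0.88. The TREX-2 genes include *SAC3B* and *SAC3C*, which the label *sac3bc* names. Among the other members the middle value was that of *CEN1*, at −0.23, so the median of −0.81 rests in part on the named genes. With total counts 11 THO/TREX genes were higher and 1 lower in each mutant, 16 and 18 pore genes higher and 1 and 0 lower, and all 10 lid genes higher, where 12538 and 13625 of all 22400 genes tested were called higher. The calls over the remaining lists were 2 higher and 0 lower for the list of *ENY2* and SAGA genes and 4 and 0 for the partners of DSS1 and centrin, in each mutant.

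**Figure D5:**
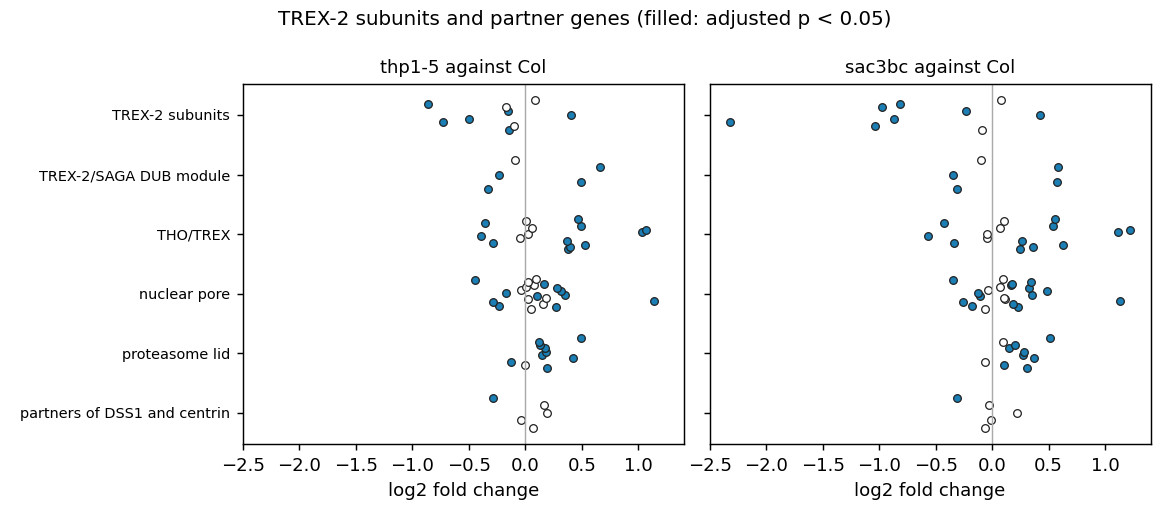
Log2 fold change against Col of the TREX-2 subunit genes and of the genes of 5 partner lists, 1 point per gene (edgeR), in *thp1-5* (left) and *sac3bc* (right); filled points have an adjusted p under 0.05. In *sac3bc* 5 TREX-2 genes lie below −0.80, left of every gene of the other lists. *SAC3B* and *SAC3C*, which the label *sac3bc* names, are among them.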

How the data were processed

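Per the file headers, the authors deposited 1 table per library with a read count and a length per locus. The submitters' processing notes name STAR and DESeq2 without version or role. Build, annotation, counting program and use of strand are not stated there. In 36870 of 37051 loci with exons in RefSeq TAIR10.1 (99.51%), all 9 members among them, the deposited length matched the merged exons, so coordinates and sequences are from TAIR10.1. Length in bases is the other deposited unit and enters only RPKM and ratios.

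One edgeR 4.0.16 model (R 4.3.3; TMM, quasi-likelihood with robust dispersion) covered the 3 groups and 9 libraries. The filter filterByExpr (minimum count 10) kept 22400 of 37361 loci, with all members. A call is a two-sided Benjamini-Hochberg adjusted p under 0.05 over these genes. SE is the size of the log2 fold change over the root of F and is approximate, as are the 95% intervals. CPM and RPKM carry no prior count, and log2 CPM for likeness had a prior count of 2. The fit was tested on simulated data with few genes changed, in both directions. Of 67 genes planted at a 1.5-fold change, 89.6% were called in *thp1-5* against Col, 97% in *sac3bc* against Col and 89.6% between the mutants. Unchanged genes called numbered 11, 8 and 10. These data held no shift between the groups like that in the TMM factors, so they cannot check the scaling. Alternatives, DESeq2 1.42.0 among them, are in the closing section; a length and GC correction was chosen after seeing the data. Intervals and tests cover counting error and the spread between libraries.

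The members and lists were chosen with earlier results of these data known. All 9 members were named, with, from each partner list, the 3 called genes of smallest adjusted p in *sac3bc* (or, with under 2 called, the 2 most abundant), *ENY2* always, and the 3 genes most like *THP1*, *SAC3A* and *SAC3B*. Neighbours, and genes said to be so, were named after their values were seen. Figures were drawn with matplotlib 3.10.9. The DNA before *SAC3C* is not reported here.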

Additional observations from a re-analysis of the deposited data

How the results depend on the processing

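Of 969 alternative values for the members and named partners, 917 kept direction and side of the threshold, 19 lost and 6 gained a call, and 27 changed sign. *SAC3A*, *SAC3B*, *CEN2* and *NUP1* were called in 17 of 17 alternatives in both mutants, as were *THP1* and *SAC3C* in *sac3bc*. The sizes of these changes depended on scaling. With total counts *SAC3B* stood at −0.21 in *thp1-5* and −0.53 in *sac3bc*, *CEN2* at −0.58 and −0.48 and *NUP1* at 0.69 and 0.76. *SAC3A* stood at −0.44 in *thp1-5* and −1.99 in *sac3bc* with total counts. In *sac3bc* *THP1* stood at −0.70 and *SAC3C* at −0.64 with that scaling. In *thp1-5* *DSS1I* was called in 11 of 17, 1 of them higher (total counts), and *CEN1* in 8 of 17; *DSS1I* was not called without Col replicate 2 or 3 or *thp1-5* replicate 1 or 2 (edgeR adjusted p from 0.0906 to 0.149). The cause of these changes was not tested. With total counts the sign changed in *thp1-5* for *THP1* (0.18), *SAC3C* (0.11), *DSS1I* (0.15), *CEN1* (0.13), *ADA2B* (0.0542) and *TON1B* (0.25), in *sac3bc* for *DSS1I* (0.25), *CEN1* (0.11), *ENY2* (0.0276), *TON1A* (0.28) and *TON1B* (0.33), and between the mutants for *DSS1V* (−0.0422). With the length and GC correction *DSS1I* stood at 0.0534 in *thp1-5* and 0.0652 in *sac3bc*, and *TON1B* at 0.0044 and 0.011, and the calls of *CEN1* and *ENY2* in both mutants were lost while *DSS1V* was called in both. Leaving out 1 library changed the sign of uncalled values: *TON1B* ranged from −0.0921 to 0.0098 in *thp1-5* and from −0.0469 to 0.0389 in *sac3bc*, and between the mutants *DSS1I* ranged from −0.1069 to 0.0172, *DSS1V* from −0.0292 to 0.0424, *CEN2* from −0.1066 to 0.0443 and *NUP1* from −0.0396 to 0.0064. DESeq2 called 3284 genes between the mutants where edgeR called 5150. Same-numbered libraries did not deviate together (correlations from −0.00928 to 0.0375), so the numbers were not taken as pairing; with a replicate block 14258, 15202 and 5093 genes and 6, 7 and 4 members were called.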

Other observations

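AT3G54366, a non-coding RNA gene that ends 142 bases from *SAC3C* on the opposite strand, was named after its values were seen. It stood at 27.6, 32.7 and 29.8 CPM in Col, 5.88, 4.46 and 4.71 in *thp1-5* and 8.93, 6.89 and 7.6 in *sac3bc*. It fell in both mutants (log2 fold change −2.60 in *thp1-5* and −1.95 in *sac3bc*, edgeR adjusted p = 8.87e-50 and 4.89e-43). The tubulin gene *TUA1*, which shares exonic bases with *DSS1I* on the opposite strand, was at 42.2 ± 2.45 CPM for Col, 24.9 ± 1.28 for *thp1-5* and 22.5 ± 1.94 for *sac3bc* (errors are SD, n = 3), and its fall was called in both (edgeR adjusted p = 1.91e-20 and 8.8e-27).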
